A study of Mus musculus with 7 samples.

Results

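The genes described here copy DNA and supply its building blocks. They were taken by name from a list of 38 genes of origin licensing, helicase activation, DNA polymerases, clamp loading, dNTP supply and the G1/S transition. Of these, 37 were read from the count table of 14889 genes and Orc1 was not analysed here. A filter on low counts left 13693 genes for testing, 36 of the listed genes among them, while Gins2 had too few reads. Liver RNA was sequenced from ApoE-/- mice of strain C57BL/6, aged 4 months, after 3 months of Western diet. All of them lack apolipoprotein E, so the saline mice share both the gene loss and the diet. The PX-478 group (n = 3) received PX-478 at 40 mg/kg and the saline group (n = 4) received saline, both intraperitoneally and bi-weekly in the words of the labels. PX-478, derived from the alkylating agent melphalan, is named in the study's title as an inhibitor of HIF1a, and the comparison asks which liver transcripts differ under it. The RNA came from whole liver, so more cells in S phase and more RNA per cell cannot be told apart, nor can the cell type that carries a transcript.

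Before a cell copies its DNA, the origin recognition complex with CDC6 and CDT1 loads the ring-shaped MCM helicase onto origins. In S phase CDC45 and the GINS complex switch that helicase on, primase and the DNA polymerases copy both strands, and the sliding clamp PCNA, placed by the RFC clamp loader, holds the polymerases on the template. Kinases activated by cyclin D phosphorylate the RB protein, which then releases E2F transcription factors, and these drive many of the genes named here. Most hepatocytes of an adult liver are out of the cell cycle, and the tissue returns to it after injury or loss of mass.

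The start regions of these genes were searched for E2F motifs, because E2F is known to drive many of them. RefSeq start regions (GRCm38.p6, 250 bases before to 50 after a start) were at hand for 30 of the 38 genes, and not for Mcm4, Gins1, Gins2, Pole, Rfc2, Ccnd1, Ccne2 and Rb1. An E2F motif, spelled TTTCCCGC, TTTCGCGC, TTTGCCGC or TTTGGCGC on either strand, was found in 12 of the 30 (40%). The share was 2.6% over all 27025 genes of the table and 4.49% over the 10488 of them that were tested here. The genes with a motif were Orc1, Cdc6, Cdt1, Mcm3, Mcm5, Mcm6, Mcm7, Gins3, Pola1, Pold1, Rfc3 and Uhrf1. The CHR element of late cell cycle genes, TTTGAA on either strand, was found in 4 of the 30 (13.3%), against 20.2% of all genes. The 4 regions below are those of the genes with the highest fold changes that had a start region with a motif, and capitals mark the E2F motifs. They lie at chr8:75109259-75109558 (plus strand) for Mcm5, chr11:98907901-98908200 (plus strand) for Cdc6, chr1:20820263-20820562 (minus strand) for Mcm3 and chr17:56304063-56304362 (plus strand) for the downstream of the listed Uhrf1 starts.
Mcm5: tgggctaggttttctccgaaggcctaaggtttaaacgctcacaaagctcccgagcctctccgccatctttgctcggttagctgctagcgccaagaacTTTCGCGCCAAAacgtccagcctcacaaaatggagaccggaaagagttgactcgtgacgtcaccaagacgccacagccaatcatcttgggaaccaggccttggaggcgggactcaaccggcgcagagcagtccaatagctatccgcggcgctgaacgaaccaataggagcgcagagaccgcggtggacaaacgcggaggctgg
Cdc6: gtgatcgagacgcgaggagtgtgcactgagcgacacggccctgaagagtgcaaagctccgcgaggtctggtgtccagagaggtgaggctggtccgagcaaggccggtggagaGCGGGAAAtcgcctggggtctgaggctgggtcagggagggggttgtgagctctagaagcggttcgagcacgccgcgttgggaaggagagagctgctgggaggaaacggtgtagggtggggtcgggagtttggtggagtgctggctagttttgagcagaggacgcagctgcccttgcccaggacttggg
Mcm3: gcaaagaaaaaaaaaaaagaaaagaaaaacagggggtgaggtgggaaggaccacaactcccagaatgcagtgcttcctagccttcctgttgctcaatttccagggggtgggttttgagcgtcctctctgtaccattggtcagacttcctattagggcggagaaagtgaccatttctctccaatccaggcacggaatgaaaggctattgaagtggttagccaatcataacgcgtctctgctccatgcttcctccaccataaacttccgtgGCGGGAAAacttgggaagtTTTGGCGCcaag
Uhrf1: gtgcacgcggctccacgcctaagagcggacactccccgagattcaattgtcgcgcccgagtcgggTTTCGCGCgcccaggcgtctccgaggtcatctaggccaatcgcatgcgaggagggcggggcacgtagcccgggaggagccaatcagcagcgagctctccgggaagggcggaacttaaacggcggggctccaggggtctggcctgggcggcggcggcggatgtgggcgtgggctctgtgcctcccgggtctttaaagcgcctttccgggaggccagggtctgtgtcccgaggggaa
In Mcm5 a pair of motifs on opposite strands overlap and read as 1 run of capitals. In Mcm3 both motifs lie after the start, and Cdc6 and Uhrf1 each hold 1 in the printed window. The other listed start of Uhrf1 held no match. Whether a factor binds there was not measured.

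In PX-478 livers most replication genes had higher mean levels than in saline livers, but none passed the test over all genes. Differences are given as log2 ratios, PX-478 over saline, from the fitted model. Of the 36 tested genes 31 had a positive ratio and 5 a negative one. Their median was 0.50, against 0.00 over all genes tested, of which 49.7% were positive. With edgeR's quasi-likelihood test 0 of the 36 passed an adjusted p of 0.05 (smallest 0.573, for Mcm5), where 0.0073% of all genes passed, a single gene. DESeq2 also passed 0 of the 36 (smallest adjusted p 0.19), where it passed 0.606% of all genes, and limma-voom passed 0. At an unadjusted p under 0.05 there were 6 of 36 with higher values (16.7%), against 3.48% of all genes, and 0 with lower values, against 3.48% of all genes as well. Those 6 were Mcm5, Cdc6, Mcm3, Rfc2, Ccnd1 and Uhrf1. Cdc6 passed the count filter through PX-478 libraries only, and Mcm5, with 2 saline libraries above the filter level, would not have passed on saline alone. Their place in this and the following counts therefore depends on their level in PX-478. Ccne2 and Rrm2, counted among the positive ratios, also needed PX-478 libraries to pass. DESeq2 gave the same number under that limit and limma-voom 5. In 5 of 36 genes (13.9%) every PX-478 library lay above every saline library, which held for 4.3% of all genes. In Tyms alone every PX-478 library lay below every saline library, which held for 4.29% of all genes. Scaled by library totals alone, the groups did not overlap for 2 of 36 genes with higher values (5.56%), Mcm5 and Cdc6, against 5.88% of all genes, and for 0 with lower values, so Rfc2, Ccnd1, Uhrf1 and Tyms overlapped.

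The high values came largely from PX-478 replicate 2. That library held the highest of the 7 values for 23 of the 36 genes (63.9%), while it held the highest value of 13.8% of all genes tested. The mean log2 CPM of the 36 genes was 1.85, 2.67 and 1.87 in PX-478 replicates 1, 2 and 3, against 1.69, 1.48, 1.65 and 1.69 in saline replicates 1, 2, 3 and 4. So replicate 2 stood well above the other PX-478 libraries, and these stood a little above saline. Without it 23 of the 36 genes tested were positive and 13 negative, with a median of 0.13. At an unadjusted p under 0.05 there were then 2 with higher values, Mcm5 and Cdc6, against 4.25% of all genes, and 1 with lower values, Fen1, against 4.25% as well. Groups without overlap were then found for 5 genes with higher values, against 10.4% of all genes, and for 2 with lower values, Fen1 and Tyms, against 9.22%. The same library had the fewest reads, 10285776 against 10962670 to 17257304 in the other 6, the highest TMM factor, 1.29 against 0.888 to 1.05, and the lowest share of mitochondrially encoded reads, 22.4% against 27.1% to 36.7%. The part of these differences in the high values was not tested.

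**Figure D1:**
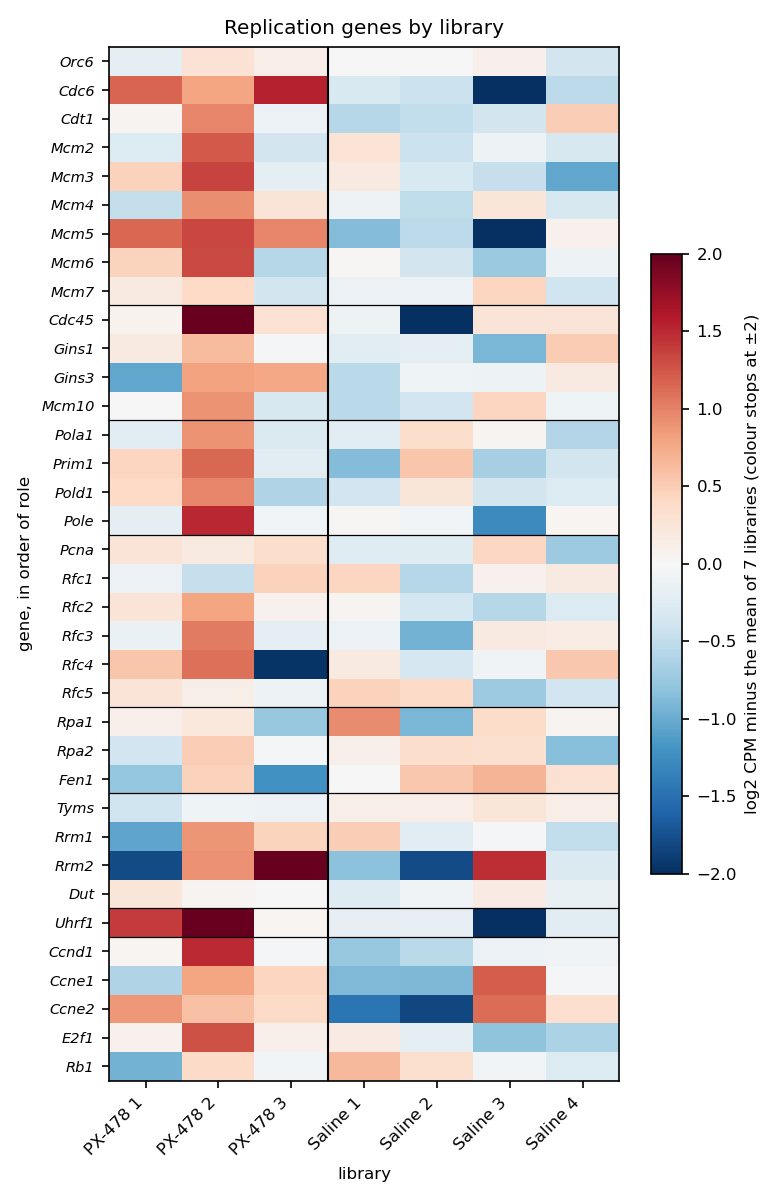
The level of the 36 tested genes (rows, grouped by role from licensing at the top to G1/S control) in the 7 libraries (columns), as log2 CPM minus the gene's mean over the libraries, in red where higher and blue where lower, with colours that stop at 2 either way. The column of PX-478 replicate 2 is red for most genes, and it holds the highest value of 23 of them.

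All 9 tested licensing genes had positive log2 ratios, from 0.12 to 2.34. Mcm5, a subunit of the MCM helicase (Entrez Gene 17218, chromosome 8 from 75109569 to 75128439 in mm10), had 36, 38 and 34 reads in the PX-478 libraries, against 8, 8, 2 and 18 in the saline libraries. In CPM, read counts relative to library size after TMM scaling, which corrects library totals for a few genes taking many reads, that was 2.51, 2.87 and 2.22 in PX-478, against 0.521, 0.694, 0.132 and 1.13 in saline. The 3 PX-478 values lay close together and all above saline. The mean was 2.53 ± 0.329 CPM (SD, n = 3) in PX-478 and 0.619 ± 0.413 CPM (SD, n = 4) in saline. The log2 ratio was 2.02 (SE 0.67, 95% limits 0.56 and 3.48, with 0.573 as the adjusted p from edgeR's quasi-likelihood fit). Without PX-478 replicate 2 it was 1.92. Of the saline libraries 2 of 4 lay above the level of the count filter, too few for Mcm5 to pass it without PX-478 libraries.

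Cdc6, the ATPase that helps load the MCM ring (Entrez Gene 23834, chromosome 11 from 98907801 to 98923940), had few reads everywhere. There were 19, 13 and 27 in PX-478, against 6, 4, 0 and 5 in saline, or 1.32, 0.983 and 1.76 CPM in PX-478 against 0.391, 0.347, 0 and 0.313 CPM in saline. The groups did not overlap, and here PX-478 replicate 2 was the lowest of its group. The log2 ratio was 2.34 (SE 0.92, 95% limits 0.36 and 4.32, edgeR adjusted p = 0.647). Only PX-478 libraries carried Cdc6 past the count filter, and 3 reads in a library correspond to 0.188 to 0.26 CPM, so the saline values lie near what counting can resolve.

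Mcm3, another MCM subunit (Entrez Gene 17215, chromosome 1 from 20802968 to 20820312), had 5.43, 10.1 and 3.39 CPM in PX-478, against 4.43, 3.12, 2.78 and 1.82 CPM in saline. The groups overlapped, since PX-478 replicate 3 lay below saline replicate 1. Its log2 ratio of 1.05 (SE 0.43, 95% limits 0.13 and 1.98, edgeR adjusted p = 0.662) was 0.54 without PX-478 replicate 2. Mcm6 had 4.39, 8.17 and 2.09 CPM in PX-478, against 3.26, 2.43, 1.85 and 2.94 CPM in saline, a log2 ratio of 0.89 (SE 0.46) that was 0.30 without that library. The remaining MCM subunits differed less. Mcm2 had 14, 40 and 14 reads in PX-478 against 23, 10, 17 and 15 in saline, so that 1 PX-478 library gave its log2 ratio of 0.55 (SE 0.65), which turned to -0.23 without it. Mcm4 stood at 0.51 (SE 0.46) and Mcm7 at 0.12 (SE 0.25), and without that library they were 0.08 and -0.05. Reads of Mcm7 may include those of Cops6 and Ap4m1, which overlap 8.7% of its exon bases from the opposite strand. Cdt1, the other loading factor, had 2.09, 4.08 and 1.83 CPM in PX-478, against 1.30, 1.39, 1.52 and 2.88 CPM in saline (log2 ratio 0.58, SE 0.51, and 0.14 without replicate 2). Orc6, a subunit of the origin recognition complex, had 5.02, 6.96 and 6.26 CPM in PX-478, against 5.73, 5.72, 6.08 and 4.39 CPM in saline, with overlapping groups (log2 ratio 0.15, 95% limits -0.48 and 0.77).

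**Figure D2:**
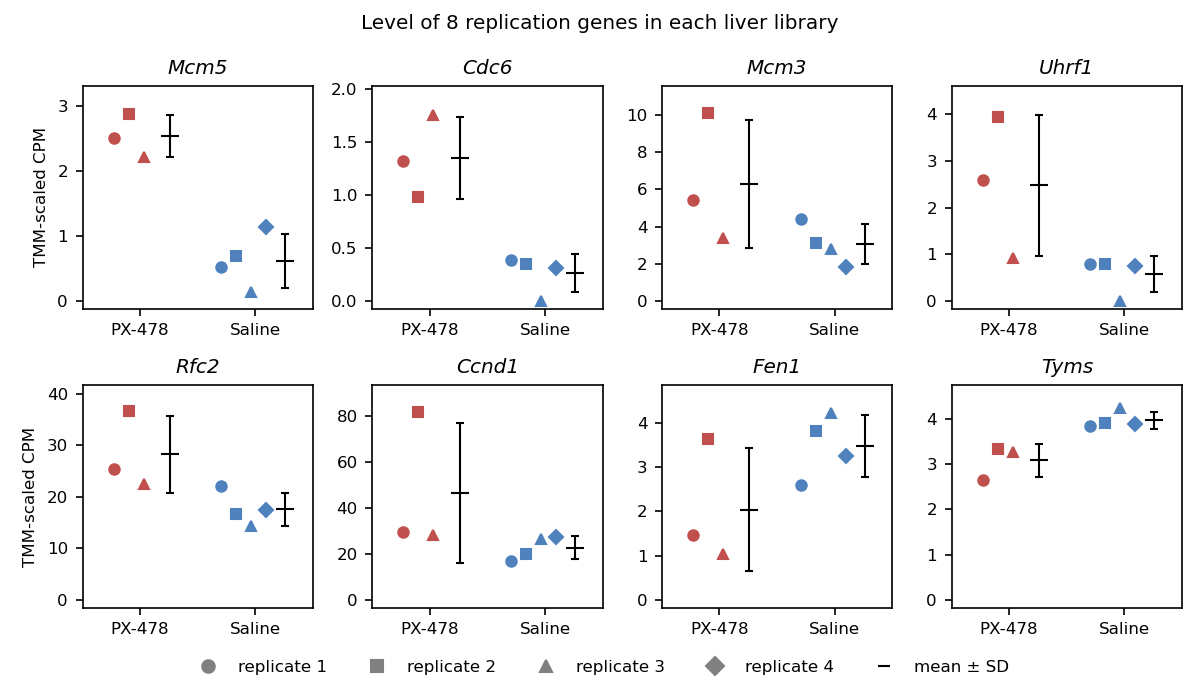
TMM-scaled CPM (vertical axes, from 0) of 8 genes in each library, PX-478 left and saline right, with a symbol for each replicate number and the mean ± SD beside the points. Mcm5, Cdc6, Uhrf1, Rfc2 and Ccnd1 do not overlap between the groups on this scale (with library totals alone only Mcm5 and Cdc6), with the square of PX-478 replicate 2 far above the rest for Ccnd1 at 81.8 CPM.

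Among the genes that activate the helicase, all 4 tested had positive fold changes and all 4 were highest in PX-478 replicate 2. Cdc45, which joins the MCM ring to form the moving helicase, had 14, 60 and 18 reads in PX-478, against 13, 0, 17 and 18 in saline. Its log2 ratio of 1.49 (SE 0.88, 95% limits -0.43 and 3.40, edgeR adjusted p = 0.77) was 0.45 without that library. The GINS subunits stood at 0.40 (SE 0.37) for Gins1 and 0.54 (SE 0.55) for Gins3, and without that library at 0.19 and 0.26. Gins2, under the filter, had 5, 9 and 0 reads in PX-478 against 3, 10, 4 and 6 in saline. Of its exon bases, 67.3% lie over Gse1 on the opposite strand. Mcm10, which links the helicase to the polymerases, had the highest mean level per kilobase of exon of the group and stood at 104, 193 and 82.7 CPM in PX-478 against 71.3, 79.7, 139 and 97.7 CPM in saline. The groups overlapped, and its log2 ratio of 0.38 (SE 0.30, 95% limits -0.27 and 1.04, edgeR adjusted p = 0.836) turned to -0.06 without PX-478 replicate 2.

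The polymerase and primase genes had 4 of 4 ratios positive and 4 of 4 values highest in PX-478 replicate 2. Pole, the catalytic subunit of polymerase ε, which copies the leading strand, had 3.00, 9.98 and 3.26 CPM in PX-478, against 3.45, 3.30, 1.32 and 3.51 CPM in saline. Only that 1 library lay outside the saline range. Its log2 ratio of 0.90 (SE 0.49, edgeR adjusted p = 0.759) was 0.11 without it. Prim1, the catalytic subunit of primase, had 4.53, 7.56 and 2.87 CPM in PX-478, against 1.76, 4.94, 2.05 and 2.57 CPM in saline (log2 ratio 0.82, SE 0.46, edgeR adjusted p = 0.766, and 0.39 without replicate 2). Pold1, of polymerase δ, which copies the lagging strand, stood at 0.57 (SE 0.33) and 0.16 without it. Pola1, of polymerase α, which extends the RNA primer, stood at 0.33 (SE 0.60) and -0.21 without it.

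Of the clamp and its loader, only Rfc2 had groups that did not overlap after TMM scaling, and with library totals alone they overlapped. Rfc2, a small subunit of the clamp loader (Entrez Gene 19718, chromosome 5 from 134581366 to 134601805), had 364, 485 and 345 reads in PX-478 against 338, 191, 216 and 279 in saline. In CPM that was 25.4, 36.7 and 22.5 in PX-478, against 22.0, 16.6, 14.3 and 17.5 in saline, with PX-478 replicate 3 just above saline replicate 1. The mean was 28.2 ± 7.50 CPM (SD, n = 3) in PX-478 and 17.6 ± 3.25 CPM (SD, n = 4) in saline. Its log2 ratio was 0.68 (SE 0.23, 95% limits 0.18 and 1.18, edgeR adjusted p = 0.577), and 0.44 without replicate 2. Lat2 overlaps 15.1% of the exon bases of Rfc2 from the opposite strand, and no use of strand is stated for the counts. Pcna, the sliding clamp, had 7.80, 7.34 and 8.35 CPM in PX-478, against 5.47, 5.46, 8.72 and 3.88 CPM in saline. All PX-478 values lay above 3 of the saline values and below that of saline replicate 3 (log2 ratio 0.41, SE 0.31, edgeR adjusted p = 0.823, and 0.45 without PX-478 replicate 2). Rfc3 stood at 0.48 (SE 0.39), Rfc4 at 0.27 (SE 0.81), Rfc5 at 0.09 (SE 0.36) and the large subunit Rfc1 at -0.07 (SE 0.31). Rfc4 had 20, 28 and 2 reads in PX-478 against 16, 8, 13 and 22 in saline, and its value was -0.39 without replicate 2 and -0.45 in limma-voom. The ratio of Rfc1 was 0.04 when libraries were scaled by their totals alone and 0.12 without replicate 2, and that of Rfc3 was -0.04 without it.

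Of the 3 genes that bind single strands or trim flaps 1 had a positive and 2 a negative ratio, with 95% limits on both sides of 0 for each. Fen1, the nuclease that removes the flaps of lagging-strand fragments, had 1.46, 3.63 and 1.04 CPM in PX-478, against 2.60, 3.82, 4.23 and 3.26 CPM in saline. Only PX-478 replicate 2 reached the saline range. The log2 ratio was -0.77 (SE 0.49, 95% limits -1.82 and 0.28, edgeR adjusted p = 0.788), and -1.47 without that library (adjusted p = 0.464 in the same test). Rpa1, the large subunit of the protein that coats single-stranded DNA, had 27, 27 and 15 reads in PX-478, against 54, 10, 35 and 29 in saline, and its groups overlapped (log2 ratio -0.39, SE 0.57, edgeR adjusted p = 0.911). Rpa2, another subunit, stood at 0.02 (SE 0.41) and turned to -0.24 in a fit with replicate blocks, which lacks saline replicate 4. It was -0.2 when only that library was left out.

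Of the 4 dNTP supply genes 3 had a positive ratio and 1, Tyms, a negative one. Tyms, thymidylate synthase, which makes dTMP from dUMP, had 38, 44 and 50 reads in PX-478, against 59, 45, 64 and 62 in saline. In CPM that was 2.65, 3.33 and 3.26 in PX-478, against 3.84, 3.90, 4.23 and 3.88 in saline. The groups did not overlap, at a log2 ratio of -0.36 (SE 0.34, 95% limits -1.10 and 0.37, edgeR adjusted p = 0.859). Dut, the dUTPase that keeps uracil out of DNA, had 7.59, 6.66 and 6.39 CPM in PX-478, against 5.34, 6.07, 7.14 and 5.76 CPM in saline (log2 ratio 0.18, SE 0.27). Ribonucleotide reductase makes deoxyribonucleotides from ribonucleotides. Its large subunit gene Rrm1 had 2.09, 8.32 and 6.13 CPM in PX-478, against 6.32, 3.82, 4.36 and 3.13 CPM in saline (log2 ratio 0.32, SE 0.44, and -0.10 without PX-478 replicate 2). Its S-phase subunit gene Rrm2 had 0, 10 and 34 reads in PX-478, against 2, 0, 18 and 4 in saline, so both groups held a library without a read and a log2 ratio of 1.30 had an SE of 1.26 (edgeR adjusted p = 0.865). Tk1, thymidine kinase, feeds the same dTTP pool by salvage and belongs to the other nucleotide genes. It had 89.2, 54.6 and 131 CPM in PX-478, against 14.5, 23.2, 9.12 and 22.7 CPM in saline, and here PX-478 replicate 2 was the lowest of its group. Whether another gene overlaps Tk1 was not examined.

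Uhrf1, which brings the maintenance methyltransferase DNMT1 to newly copied DNA (Entrez Gene 18140, chromosome 17 from 56303321 to 56323486), had 37, 52 and 14 reads in PX-478 against 12, 9, 0 and 12 in saline. In CPM that was 2.58, 3.93 and 0.914 in PX-478, against 0.781, 0.781, 0 and 0.752 in saline. PX-478 replicate 3 lay just above saline, where library totals alone put it inside the saline range, and the other PX-478 libraries lay well above it. The log2 ratio was 2.08 (SE 0.87, 95% limits 0.20 and 3.97, edgeR adjusted p = 0.683), and 1.59 without PX-478 replicate 2. Dnmt1 itself had a log2 ratio of 0.56 (SE 0.22, edgeR adjusted p = 0.641).

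In G1/S control the largest difference in level was that of Ccnd1, cyclin D1 (Entrez Gene 12443, chromosome 7 from 144929931 to 144939925). It had 428, 1082 and 432 reads in PX-478 against 264, 230, 406 and 440 in saline. Scaled to CPM, the values were 29.8, 81.8 and 28.2 in PX-478, against 17.2, 19.9, 26.8 and 27.6 in saline. PX-478 replicate 2 stood far above the other 6 libraries, and the other PX-478 libraries lay just above the top of saline, although with library totals alone replicate 3 lay inside the saline range. The log2 ratio of 1.02 (SE 0.36, 95% limits 0.23 and 1.82, edgeR adjusted p = 0.602) was 0.34 without replicate 2. The LTO1 gene overlaps 23.4% of the exon bases of Ccnd1 from the opposite strand. E2f1, a transcription factor that RB holds in check, had 2.58, 6.05 and 2.61 CPM in PX-478, against 2.74, 2.08, 1.32 and 1.5 CPM in saline (log2 ratio 0.97, SE 0.47, edgeR adjusted p = 0.728, and 0.44 without replicate 2). Rb1 had 2.86, 7.41 and 5.42 CPM in PX-478, against 8.99, 7.11, 5.42 and 4.64 CPM in saline (log2 ratio -0.32, SE 0.37, and -0.66 without replicate 2). The E cyclin genes, whose products activate CDK2, overlapped between the groups. Ccne1 had 22, 56 and 50 reads in PX-478 against 19, 14, 87 and 37 in saline, and Ccne2 had 27, 20 and 20 in PX-478 against 4, 2, 34 and 20 in saline. Their log2 ratios were 0.19 (SE 0.59) and 0.65 (SE 0.82), and that of Ccne1 was -0.14 without PX-478 replicate 2. Ints8 overlaps 17.4% of the exon bases of Ccne2. Smaller opposite-strand overlaps concern Orc6 with Vps35 (6.93%), Cdc45 with Ufd1 (5.96%), Rfc4 with Eif4a2 (12.7%), Rfc5 with Wsb2 (10.7%), Fen1 with Tmem258 (5.37%) and Rb1 with Rcbtb2 and Lpar6 (14.9%). Whether reads of these neighbours entered the counts was not examined, and no use of strand is stated.

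**Figure D3:**
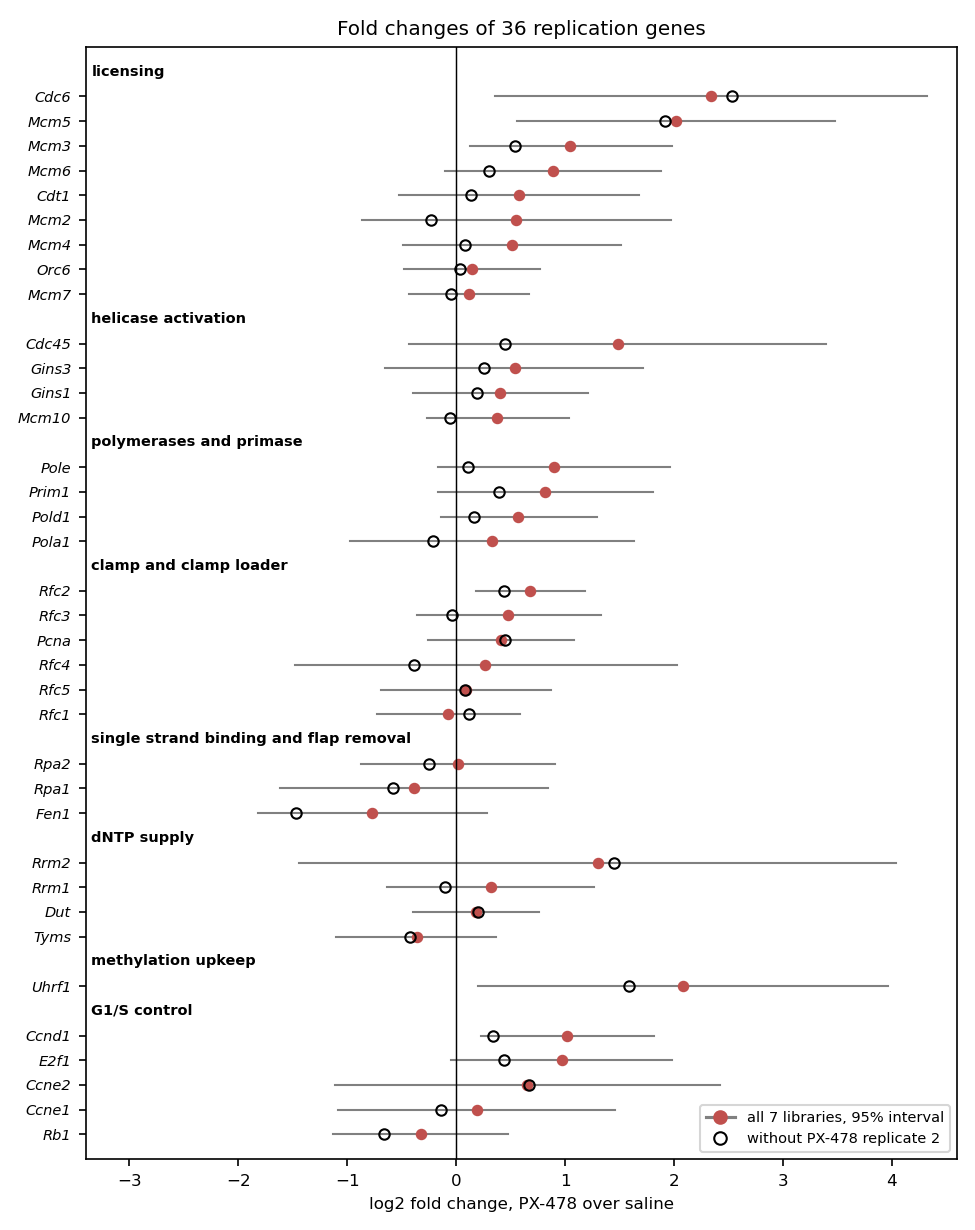
The log2 ratio, PX-478 over saline, (horizontal axis) for the 36 tested genes, by role, with 95% limits from edgeR's quasi-likelihood test in all 7 libraries (filled points) and the value without PX-478 replicate 2 (open points). Mcm5 and Cdc6 keep values of 1.92 and 2.53 without that library, while most of the others move toward 0 and Fen1 moves to -1.47.

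The fold changes were set beside the start regions as a description. With all 7 libraries the 11 tested genes with an E2F motif were all positive, with a median log2 ratio of 0.58 and a range from 0.12 to 2.34. Without PX-478 replicate 2, Mcm7 (-0.05), Pola1 (-0.21) and Rfc3 (-0.04) among them were negative. Of the 18 tested genes whose start regions held none, 14 were positive with all 7 libraries, with a median of 0.23 and a range from -0.77 to 1.49. Among these, Mcm2, Mcm10, Rfc4, Rpa2, Rrm1 and Ccne1 turned negative without that library, and Rfc1 turned positive. The ranges overlap, and the members without a motif include E2f1, Pcna, Rrm2 and Cdc45.

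The levels spanned a wide range when set per kilobase of exon (GENCODE M21 exon bases, mm10). This length counts every base annotated as exon in any transcript of a gene. It may exceed the transcript present in liver, so comparisons between genes are approximate. Where the reads counted for Mcm10 map was not examined, so its level is given as counted. In saline Mcm10 ranked highest, at 12.6 ± 3.91 CPM per kilobase, followed by Ccnd1 at 4.86 ± 1.09, Mcm7 at 4.12 ± 1.07 and Gins1 at 2.95 ± 1.21 (SD, n = 4). Cdc6 at 0.0502 ± 0.034 and Gins2 at 0.104 ± 0.0741 CPM per kilobase were at the bottom. The same 3 genes led in PX-478, with Mcm10 at 16.4 ± 7.57, Ccnd1 at 9.90 ± 6.48 and Mcm7 at 4.49 ± 1.17 CPM per kilobase (SD, n = 3). Per kilobase the libraries of Ccnd1 and Mcm7 overlapped in saline but not in PX-478, and those of Mcm10 and Ccnd1 overlapped in PX-478 but not in saline. The subunits Mcm2 to Mcm7 sit in the helicase ring in equal numbers, yet their transcripts differed 19-fold between the highest and lowest in PX-478, against 26.6-fold in saline. Mcm7 was the highest of them in both groups, though its reads may include those of Cops6 and Ap4m1. The lowest was Mcm2 in PX-478, at 0.236 ± 0.173 CPM per kilobase, and Mcm5 in saline, at 0.155 ± 0.103, beside Mcm2 at 0.159 ± 0.0405. Mcm2 and Mcm5 therefore did not differ beyond their spread in saline, whereas in PX-478 Mcm5 stood at 0.635 ± 0.0823.

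**Figure D4:**
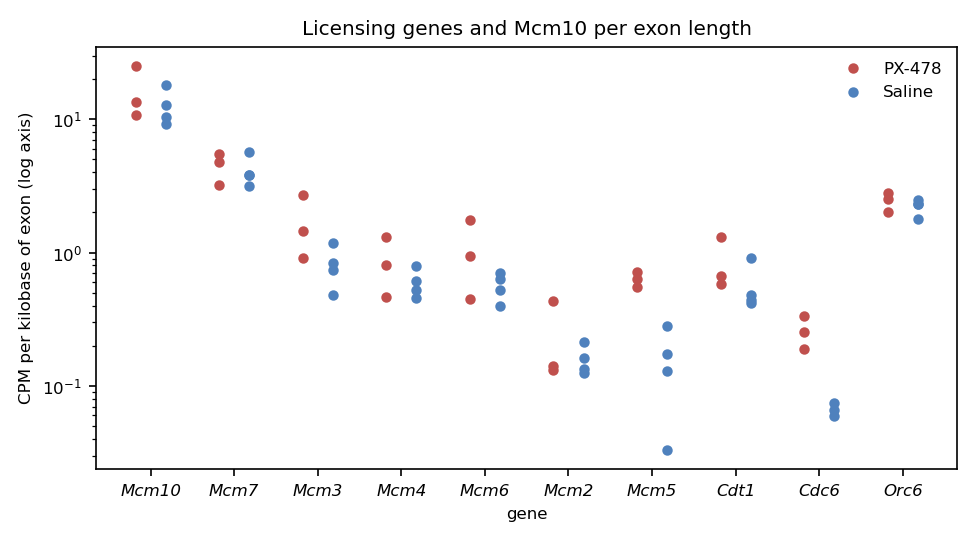
CPM per kilobase of exon (vertical log axis) of Mcm10 and the licensing genes (horizontal axis) in each library, PX-478 left in red and saline right in blue, 1 point per library. Mcm10 lies above the others in both groups, PX-478 values of Mcm5 and Cdc6 lie above all saline values, and the 1 saline library without a Cdc6 read is not drawn.

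The other genes of the pathway were taken from lists that do not share members with these. Of 34 other replication fork genes tested, 24 had positive and 10 negative log2 ratios, with a median of 0.26 and 0 past the threshold (smallest adjusted p 0.641, edgeR). The smallest p-values belonged to Dnmt1, Pola2 at 0.71 (SE 0.30) and Gins4 at 0.68 (SE 0.29). Pola2, the second subunit of polymerase α, had 17.8, 16.5 and 20.5 CPM in PX-478, against 12.6, 13.0, 5.29 and 13.8 CPM in saline, and the groups did not overlap. Of 27 other nucleotide synthesis genes 15 were positive and 12 negative, with a median of 0.04 and 0 past the threshold. Tk1 led this list at 2.40 (SE 0.36, edgeR adjusted p = 0.108), passed in DESeq2, and passed in edgeR without PX-478 replicate 2. Next were Nme2, a nucleoside diphosphate kinase, at -0.47 (SE 0.21) and Ctps, CTP synthase, at -0.84 (SE 0.39). Of 26 other G1/S genes 14 were positive and 12 negative, with a median of 0.10 and 0 past the threshold. Cdkn1a, the inhibitor p21 that blocks entry into S phase, led them, at 8.29, 12.6 and 12.5 CPM in PX-478 against 3.00, 3.99, 4.49 and 4.13 CPM in saline (log2 ratio 1.51, SE 0.28, edgeR adjusted p = 0.139). Rbl2, the RB relative p130 of resting cells, stood at 0.83 (SE 0.28) and Cdk2 at 0.40 (SE 0.23). Of 24 mitosis genes 19 were positive and 5 negative, with a median of 0.80 and 0 past the threshold. PX-478 replicate 2 held the highest value for 45.8% of them, against 13.8% of all genes. That share was 38.2% for the other replication fork genes, 26.9% for the other G1/S genes and 11.1% for the other nucleotide synthesis genes. Some mitosis genes had few reads, such as Tpx2 with 3, 35 and 15 in PX-478 against 3, 18, 0 and 4 in saline. Mki67, the marker Ki-67, stood at 6.97, 11.2 and 9.92 CPM in PX-478, against 4.49, 5.29, 5.42 and 5.07 CPM in saline, and Cdk1 and Top2a had log2 ratios of 1.41 (SE 0.56) and 1.27 (SE 0.58).

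Marker lists of the cells a liver holds were summed per library beside these results. The 10 hepatocyte markers summed to 34300 to 41800 CPM in PX-478, against 39000 to 55100 CPM in saline, by far the highest of the sums, with 2 of 10 higher. Of the 10 Kupffer and macrophage markers, all had lower means in PX-478, with sums of 322 to 432 CPM against 335 to 668 CPM in saline. The 7 B cell and plasma cell markers read here summed to 5.16 to 7.34 CPM in PX-478, against 12.4 to 17.8 CPM in saline, so the groups did not overlap, and 1 of the 7 had a higher mean. The 10 T and NK cell markers summed to 9.68 to 14.3 CPM in PX-478, against 8.85 to 23.5 CPM in saline. Endothelial markers summed to 170 to 214 CPM in PX-478, against 123 to 183 CPM in saline, with 6 of 8 higher. Stellate cell markers summed to 147 to 332 CPM in PX-478, against 180 to 220 CPM in saline, with 6 of 8 higher, and their highest sum was that of PX-478 replicate 2. The 4 neutrophil markers read here summed to 14.4 to 21.8 CPM in PX-478, against 14.7 to 23 CPM in saline. The 6 erythroid markers summed to 120 to 156 CPM in PX-478, against 106 to 193 CPM in saline. The 7 cholangiocyte markers summed to 122 to 162 CPM in PX-478, against 97 to 153 CPM in saline, so none of these 3 lists separated the groups. No marker read here was at 0 in every library. The part of these cells in the levels of the replication genes was not tested.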

How the data were processed

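Liver RNA of 7 ApoE-/- mice was measured by RNA-seq. The authors deposited whole-number read counts per Entrez gene, not normalized, in 2 columns per sample. Per the submitters' processing notes the tools included featureCounts and edgeR (versions not given) and the build was mm10; which aligner was used is not given. Both columns of a sample agreed more closely than independent counts would (chi-square per gene 0.291 to 0.765, against 49.2 to 146 between libraries of a group). They may therefore not be independent, and they were averaged to 1 rounded count. What distinguishes them is not stated. The table's 7 columns of averages per sample stayed out. Libraries held 10285776 to 17257304 reads. Floors of 3 reads cover counting error only.

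Genes were filtered with filterByExpr, scaled by TMM and compared with edgeR 4.0.16 (quasi-likelihood F test, robust, no covariates), with Benjamini-Hochberg adjustment over all 13693 genes and a threshold of 0.05. Each SE is the size of the log2 ratio divided by the root of its F statistic. DESeq2 1.42.0 and limma 3.58.1 (voom) were alternatives. Another fit used the replicate numbers as blocks and left out saline replicate 4, for which PX-478 has no library of that number. Mean log2 CPM used a prior count of 2. The fit was tested on simulated data. Only genes with more reads than Cdc6, Mcm5 or Uhrf1 were changed there, so the test does not cover genes this low. Groups and replicate numbers came from the titles. The design text gives the n of each treatment and no batch is labelled, so a p-value reflects only how far these samples spread, which may be partly technical. Positions, exon lengths and overlaps are from GENCODE M21 (GRCm38, the assembly of mm10).

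The members and gene lists were chosen with earlier results of these data known, so no list was tested and no p was adjusted over a list. Every member read was named. Of each other pathway list, the 3 genes with the smallest p were named, and any other gene was named after its values were seen.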

Additional observations from a re-analysis of the deposited data

Results flagged for a closer look

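In the saline group the gap between 1 library and the nearest other was large relative to the group's range for 6 of the 48 genes examined. The cut-off used would flag about 1 in 20 groups of independent, normally distributed values. These genes share the same saline libraries and some have few reads, so an excess over chance cannot be read from the count. Saline replicate 3 was the low one for Uhrf1, with 0 CPM against 0.752 to 0.781 in the other 3, for Pole at 1.32 CPM and for the polymerase α gene Pola2 at 5.29 CPM. The same library was the high one for Tyms at 4.23 CPM, against 3.84 to 3.90 CPM in the other 3, or 64 reads against 45 to 62, a gap that is small in itself and arises because the other 3 lie close together. Saline replicate 2 was high for Pold1 at 13.6 CPM and saline replicate 4 for Cdt1 at 2.88 CPM. Without saline replicate 3 the log2 fold change was 0.48 for Pola2, against 0.71 with all libraries.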

How the results depend on the processing

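In every setting run 0 of the replication genes passed the threshold. With all 7 libraries their median log2 ratio was 0.37 to 0.71 under the other scalings, filters and tools, the highest of these with library totals alone, which also moved the median of all genes to 0.145. The median ranged from 0.13 (without PX-478 replicate 2) to 0.58 when 1 library was left out. Over all genes tested, the number with higher values was 0 as reported, 4 with library totals alone, 46 in DESeq2, 1 with replicate blocks and 0 to 4 when 1 library was left out. The number with lower values was 1 as reported, 37 in DESeq2, 0 in limma-voom, 2 with replicate blocks and 1 to 3 when 1 library was left out. Replication genes without overlap between the groups numbered 5 higher and 1 lower as reported, or 2 and 0 with library totals alone (5.88% and 1.47% of all genes). They were 4 and 1 with a filter of CPM above 1 in 3 libraries (4.24% and 4.4%). With the first count column alone they were 6 and 1 (4.24% and 4.24%). The fit with replicate blocks leaves out saline replicate 4, and there they were 7 and 1 (6.86% and 6.62%). This count does not use the blocks, and leaving out that library alone gave the same genes and shares. When 1 library was left out the replication genes without overlap numbered 5 to 9 and 1 to 2 (6.24% to 10.4% and 6.29% to 9.36% of all genes). Those at an unadjusted p under 0.05 ranged from 2 to 10 higher, the most without PX-478 replicate 3 (3.21% of all genes; 1.99% to 4.25% over the left-out libraries), and from 0 to 1 lower. In the other pathway lists 1 gene passed with library totals alone (Tk1), 2 in DESeq2 (Tk1 and Cdkn1a) and 0 to 1 when 1 library was left out. The causes were not tested.

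Single fold changes changed sign in 20 of 957 cases, 17 of them when a library was left out and no blocks were used. The other 3 were Rfc1 at 0.04 with library totals alone, Rfc4 at -0.45 in limma-voom and Rpa2 at -0.24 with replicate blocks. The fit with blocks also lacks saline replicate 4, and Rpa2 stood at -0.2 when only that library was left out. Without PX-478 replicate 2 the sign turned for Mcm2, Mcm7, Mcm10, Pola1, Rfc1, Rfc3, Rfc4, Rpa2, Rrm1 and Ccne1. Lowest and highest values over the left-out libraries were -0.23 and 0.84 for Mcm2, -0.05 and 0.32 for Mcm7, -0.06 and 0.61 for Mcm10, -0.21 and 0.55 for Pola1, -0.04 and 0.70 for Rfc3, -0.39 and 0.81 for Rfc4, -0.10 and 0.72 for Rrm1, -0.09 and 1.88 for Rrm2, -0.10 and 0.28 for Rfc5, -0.37 and 0.12 for Rfc1, -0.25 and 0.22 for Rpa2, and -0.14 and 0.91 for Ccne1. For the genes named with the smallest p they were 1.68 and 2.49 for Mcm5, 1.93 and 2.61 for Cdc6, 0.44 and 0.82 for Rfc2, 0.34 and 1.28 for Ccnd1, 0.54 and 1.35 for Mcm3 and 1.59 and 2.48 for Uhrf1. Same-numbered PX-478 and saline libraries did not deviate together (correlations -0.02, -0.07 and 0.00). With so few libraries such values cannot show whether samples were paired, and no batch is labelled. With replicate blocks, a fit without saline replicate 4, the median was 0.41. Depth limits Cdc6, Mcm5, Uhrf1, Rrm2, Gins2, Ccne2, Cdc45 and Rfc4, each with under 10 reads in at least 1 library.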

Other observations

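As counted, and without a look at where its reads map, Mcm10 had a mean level per kilobase of exon 3.65 to 69.5 times as high as Mcm2 to Mcm7 in PX-478, and 3.06 to 81.3 times in saline. It had 1268 to 2546 reads in the PX-478 libraries and 919 to 2101 in the saline libraries, and no other protein-coding gene overlaps its exons in GENCODE M21.

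Of the 9 licensing genes 7 were highest in PX-478 replicate 2. Mcm5 was among them, but its PX-478 libraries averaged 2.53 ± 0.329 CPM (SD, n = 3) and lay close together, and for Cdc6 that library was the lowest of the PX-478 group. Cdkn1a and Mki67, a brake on S phase and a marker of cycling cells, both had every PX-478 library above every saline library. They were named for the smallest p of their lists. The same held for 4.3% of all genes, 3 of the 26 other G1/S genes and 4 of the 24 mitosis genes. Of these mitosis genes 5 had negative ratios.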
